A study of Cavia porcellus with 10 samples.

Results

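The insulin-like growth factor (IGF) axis of the guinea pig cervix is described here through 10 genes, chosen by gene name among the 25028 Ensembl genes of the deposited table. They are the ligands IGF1 and IGF2, the receptors IGF1R and IGF2R, and the binding proteins IGFBP2, IGFBP3, IGFBP4, IGFBP5, IGFBP6 and IGFBP7. The table lists IGF1 and IGF2 under the protein entry names IGF1_CAVPO and IGF2_CAVPO (ENSCPOG00000023247 and ENSCPOG00000024765), and the other members under their symbols. All 10 were above 3 TPM, a transcript abundance scaled for gene length and library size, in each stage and were among the 12645 genes tested.

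Both ligands act through IGF1R, a receptor tyrosine kinase that signals through insulin receptor substrates to the PI3K and AKT kinases. IGF2R has no kinase and takes IGF2 up for degradation. The binding proteins hold the ligands in blood and tissue, and proteases that cut a binding protein release its ligand. In reproductive tissues, fibroblasts and muscle cells are known sources of IGFs and of several binding proteins.

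RNA sequencing of poly(A) RNA was made from the cervix of 10 female Hartley guinea pigs in 3 stages, to follow gene expression toward the remodelling of the cervix at birth. The 3 NP animals were not pregnant and were killed in estrus, on the day after the membrane that closes the vulva had opened. The 3 MT animals were at mid-pregnancy (43.6 ± 0.5 days) and the 4 LT animals in late pregnancy (65.2 ± 1.2 days) but not in labor, with ages estimated from the size of the fetuses. Each library came from the vaginal end of the cervix of 1 untreated animal, a site chosen to leave uterine muscle out.

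Each library held 18730665 to 27881572 reads counted on genes, and a member was backed by 1184 reads (IGF2) to 78783 reads (IGFBP5) in an animal. TPM values sum to the same total in each animal. Markers of stroma, squamous and mucus epithelium, smooth muscle, endothelium and leukocytes were all detected, and none of the 33 marker genes with a row was at 0 in all animals. The summed TPM of 5 mucus epithelium markers, led by AGR2, MUC5B and EPCAM, was 383 to 630 in NP, 2148 to 4525 in MT and 6741 to 8454 in LT. All 5 were called higher from NP to MT and 1 of 5, AGR2, from MT to LT, while MUC5B averaged 730 TPM in MT and 340 in LT and was not called. The summed TPM of 7 smooth muscle markers ran from 7947 to 30470 in NP, from 12440 to 18720 in MT and from 18840 to 39170 in LT. In such bulk samples, fewer cells of a type and less RNA per cell cannot be told apart.

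Changes are given as differences in log2(TPM + 1) between stage means, later minus earlier, with the standard error (SE) and the adjusted P-value of limma over all 12645 genes, and a gene is said to rise or fall where that P-value is under 0.05. Single members were also compared on square root TPM by two-sided exact permutation tests, whose smallest possible P is 0.1 for 3 animals against 3 and 0.0286 for 3 against 4. The comparisons NP to MT, MT to LT and NP to LT share animals with each other. On this scale the median of all genes tested was -0.14 (NP to MT), -0.16 (MT to LT) and -0.28 (NP to LT), and changes of members are to be read relative to it.

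From MT to LT, 3 members rose (IGF1, IGFBP4 and IGFBP7) and 3 fell (IGF2, IGF1R and IGFBP3), that is 6 of 10, beside 29.4% of all genes tested. Between NP and MT, 1 member fell (IGF2R), beside 18.5% of all genes. From NP to LT, 5 members rose and 4 fell, beside 53.1% of all genes. By direction, 6.27% of all genes rose and 12.2% fell from NP to MT, 6.73% and 22.7% from MT to LT, and 11.2% rose and 41.9% fell from NP to LT. The median log2 change of the members was -0.14 from NP to MT, 0.14 from MT to LT and -0.01 from NP to LT. The animals of the 2 stages did not overlap for 2, 7 and 7 members in these comparisons, against 34.9%, 46.3% and 52.4% of all genes.

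The direction of calls over all genes depends on the scaling. Of all genes called by limma on TPM, 793 were higher and 1549 lower from NP to MT, 851 and 2872 from MT to LT, and 1417 and 5301 from NP to LT. With the TPM values scaled by median ratios these splits were 1378 and 904, 1848 and 1868, and 3330 and 2955. The members called under that scaling were 0, 5 and 8, and edgeR on the deposited counts called 0, 5 and 7. Of all genes, edgeR called 2280, 3667 and 6247, and DESeq2 on the counts called 3121, 4571 and 6783.

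**Figure D1:**
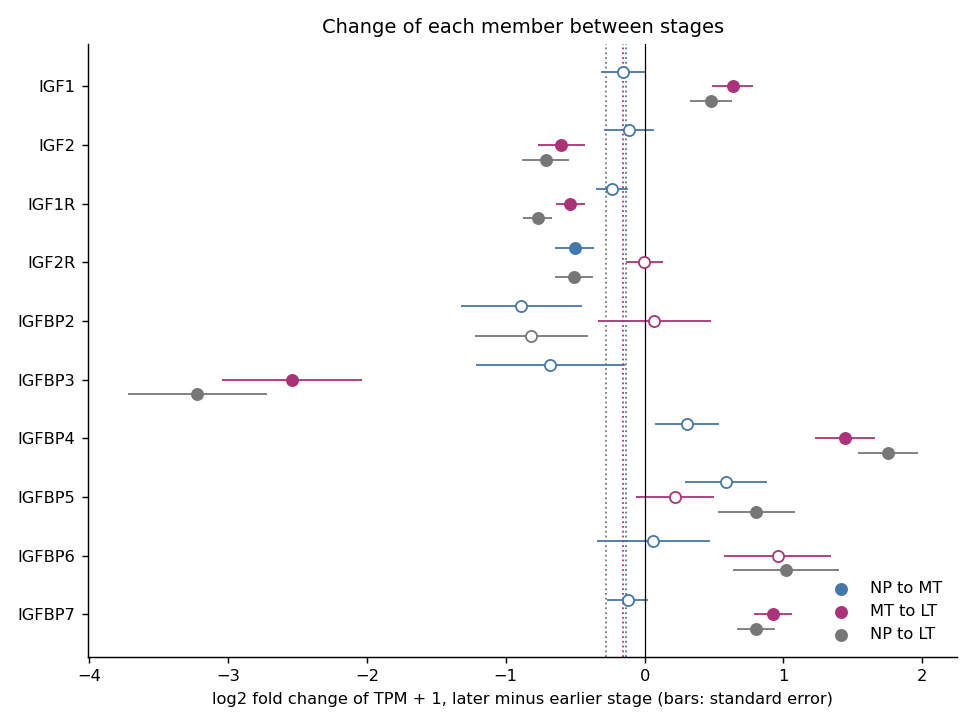
Difference in log2(TPM + 1) between stage means for each member (points; horizontal bars show the SE), with filled points for a limma adjusted P under 0.05 and dotted lines at the median of all genes tested. IGFBP3 lies farthest to the left, at -2.54 from MT to LT and -3.22 from NP to LT, and IGFBP4 farthest to the right, at 1.45 and 1.75.

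The ligands moved in opposite directions late in pregnancy. IGF1, the ligand that growth hormone induces in liver and that many tissues make locally, was at 268, 287 and 346 TPM in the NP animals, at 283, 235 and 290 in MT and at 412, 385, 534 and 355 in LT. Each LT animal was above each animal of the other stages, while NP and MT overlapped. The stage means were 300 ± 40.7 TPM in NP (SD, n = 3), 269 ± 30.1 in MT (n = 3) and 422 ± 78.4 in LT (n = 4). IGF1 rose by 0.63 from MT to LT (SE 0.15, limma adjusted P = 0.0134, exact permutation P = 0.0286), a ratio of means of 1.57. It also rose from NP to LT (0.48, limma adjusted P = 0.0221), whereas the difference from NP to MT was -0.15 (limma adjusted P = 0.522). The rise from MT to LT was not called without MT replicate 2 (limma adjusted P = 0.0594), and that from NP to LT not without NP replicate 1 (0.0632) or NP replicate 2 (0.0725).

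IGF2, the ligand best known for growth of the fetus and placenta, was at 142, 242 and 200 TPM in NP, at 177, 172 and 178 in MT and at 108, 116, 142 and 100 in LT. Each LT animal was below every MT animal and, for the highest by a narrow margin, below the lowest NP animal. Its means were 195 ± 50.0 TPM in NP, 176 ± 3.59 in MT and 117 ± 18.0 in LT. IGF2 fell by 0.60 from MT to LT (SE 0.17, limma adjusted P = 0.0263, exact permutation P = 0.0571) and fell by 0.71 from NP to LT (SE 0.17, limma adjusted P = 0.00625). The call from MT to LT was lost under median-ratio scaling (-0.42, limma adjusted P = 0.0512), in edgeR (adjusted P = 0.0556) and without any 1 of MT replicates 1, 2 and 3 or LT replicates 1, 2 and 4 (limma adjusted P from 0.0532 to 0.0725). The fall from NP to LT kept its call under median-ratio scaling (-0.39, limma adjusted P = 0.044) and in edgeR (adjusted P = 0.0348) but not in edgeR with no filter (adjusted P = 0.0698).

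The ratio of IGF1 to IGF2 transcripts within an animal does not depend on the scaling. It was 1.89, 1.19 and 1.73 in NP, 1.60, 1.37 and 1.63 in MT and 3.81, 3.33, 3.76 and 3.53 in LT. The MT animals lay within the range of NP, and every LT animal had more than 3 IGF1 transcripts for each IGF2 transcript. The stage means were 1.60 ± 0.366, 1.53 ± 0.141 and 3.61 ± 0.220.

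**Figure D2:**
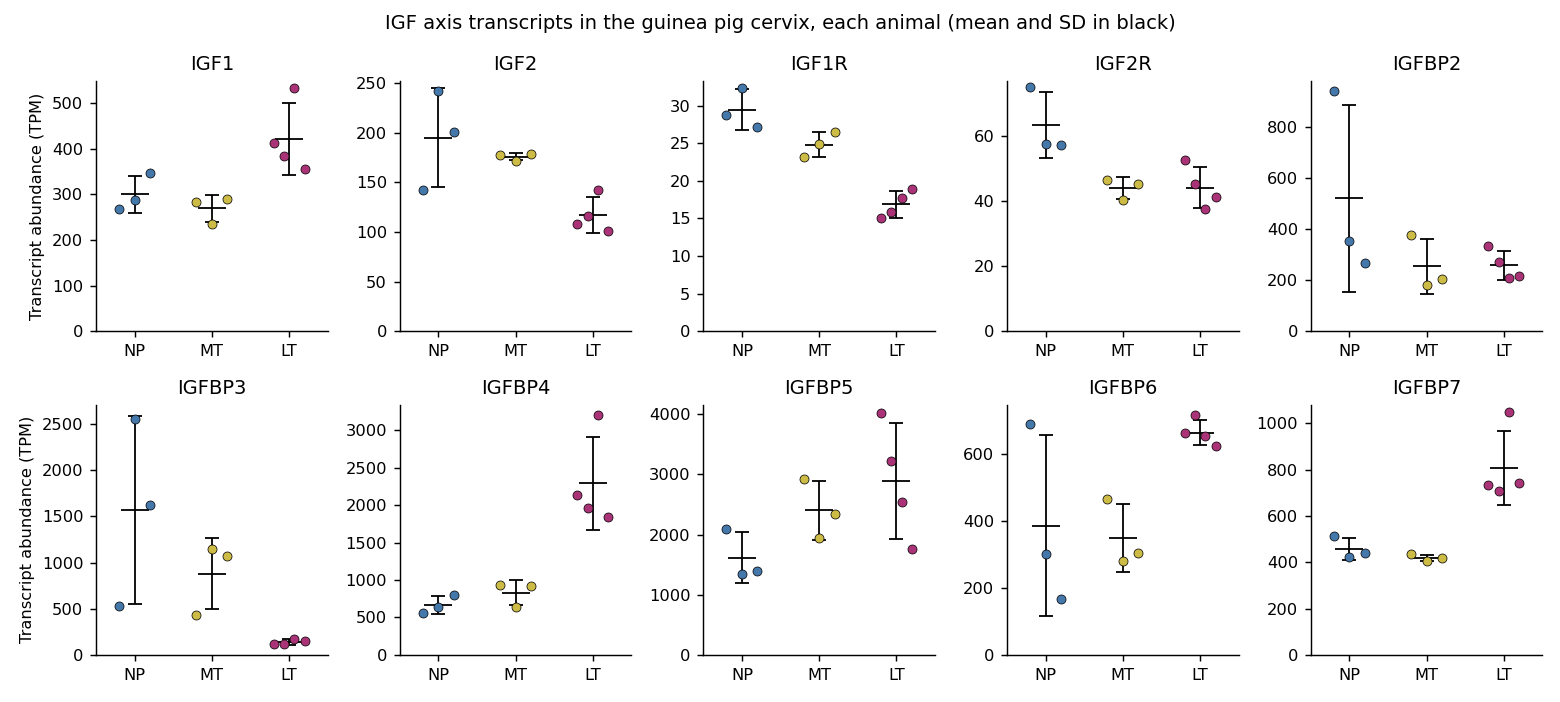
Transcript abundance in TPM of the 10 members in each animal (points, by stage), with the stage mean and SD in black; each panel has its own vertical axis from 0. The 4 LT animals lie apart from all others for IGF1, IGF1R, IGFBP3, IGFBP4 and IGFBP7.

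Receptor transcripts were the least abundant of the axis in each stage. IGF1R, the signalling receptor, was at 28.8, 32.4 and 27.1 TPM in NP, at 23.2, 24.9 and 26.5 in MT and at 15.0, 15.8, 17.7 and 18.9 in LT. The 3 stages formed a descending series with no overlap between any of them. IGF1R fell by 0.53 from MT to LT (SE 0.11, limma adjusted P = 0.0068, exact permutation P = 0.0286) and fell by 0.77 from NP to LT (SE 0.11, limma adjusted P = 0.000407). Between NP and MT the difference was -0.24 (limma adjusted P = 0.17). Permuting the F statistic over the 3 stages gave P = 0.000476, the smallest value this exact test can give. Under median-ratio scaling the fall from MT to LT was smaller (-0.36, limma adjusted P = 0.0448), and edgeR with no filter did not call it (adjusted P = 0.0642).

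IGF2R, the receptor that clears IGF2 and also sorts lysosomal enzymes, was at 74.9, 57.4 and 57.2 TPM in NP, at 46.4, 40.2 and 45.2 in MT and at 52.4, 45.2, 37.6 and 41.1 in LT. The NP animals were the highest, and MT and LT overlapped. IGF2R fell by 0.50 from NP to MT (SE 0.14, limma adjusted P = 0.0358) and fell by 0.51 from NP to LT (limma adjusted P = 0.00997), and from MT to LT the difference was -0.0032 (limma adjusted P = 0.989). Both falls lost their call under median-ratio scaling (-0.37 and -0.19, limma adjusted P = 0.168 and 0.346) and in edgeR (adjusted P = 0.128 and 0.231). The call from NP to MT was also lost without any 1 of NP replicates 1 and 2, MT replicates 1, 2 and 3 or LT replicate 2 (limma adjusted P from 0.0542 to 0.106). The ratio of IGF2R to IGF1R, which no scaling moves, averaged 2.16 ± 0.416 in NP, 1.78 ± 0.203 in MT and 2.66 ± 0.642 in LT, and all LT animals (2.13 to 3.48) were above all MT animals (1.62 to 2.01).

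Among the binding proteins IGFBP3 showed the largest difference. IGFBP3, which carries most IGF in blood together with the acid-labile subunit, was at 525, 2557 and 1627 TPM in NP, at 434, 1143 and 1068 in MT and at 119, 115, 175 and 152 in LT. The LT animals lay close together and far below every other animal, whereas NP and MT were spread widely and overlapped. Stage means were 1570 ± 1017, 882 ± 390 and 140 ± 28.6 TPM. IGFBP3 fell by 2.54 from MT to LT (SE 0.50, limma adjusted P = 0.00669, exact permutation P = 0.0286) and fell by 3.22 from NP to LT (SE 0.50, limma adjusted P = 0.000715).

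The fall of IGFBP3 from MT to LT was called under every alternative run, with adjusted P up to 0.0432, and lay between -2.99 and -2.29 when single animals were left out. From NP to MT the difference was -0.68 (SE 0.54, limma adjusted P = 0.392), and it lay between -1.33 without NP replicate 1 (limma adjusted P = 0.0347) and -0.19 without NP replicate 2 (0.849). NP replicate 1 and MT replicate 1 held the lowest IGFBP3 of their stage together with the highest IGFBP2, IGFBP5 and IGFBP6. They also had the highest summed stroma markers (10650 and 9914 TPM, against 5207 to 6386 in the other NP and MT animals), a sum carried by COL1A1 and COL1A2, and the highest squamous markers (3358 TPM in NP replicate 1 against 1040 and 1073, and 1230 TPM in MT replicate 1 against 166 and 415). Of the other stroma markers, NP replicate 1 had the lowest LUM and PDGFRB of NP and a PDGFRA between the other animals, and MT replicate 1 had the lowest PDGFRA and PDGFRB of MT and the highest LUM. Summed smooth muscle markers were highest of NP in NP replicate 1 (30470 TPM against 10290 and 7947) and lowest of MT in MT replicate 1 (12440 against 18720 and 14230). Summed leukocyte markers were lowest of their stage in both (72.0 TPM against 162 and 147 in NP, and 70.0 against 90.6 and 71.0 in MT). The endothelial sum was lowest in the same animals (104.5 TPM against 128 and 120 in NP, and 73.9 against 105 and 107 in MT), and the mucus epithelium sum was lowest of NP in NP replicate 1 (383 TPM) and highest of MT in MT replicate 1 (4525 TPM). The part of these markers in the values was not tested. From MT to LT, all 4 endothelial markers with a row also fell, their summed TPM going from 73.9 to 107 in MT to 39.8 to 68.8 in LT. Of the 5 stroma markers tested, LUM rose over the same interval (126 to 243 TPM, limma adjusted P = 0.00761), while PDGFRA (74.3 to 24.4 TPM, limma adjusted P = 0.00187) and PDGFRB (43.7 to 29.6 TPM, limma adjusted P = 0.0324), both named after their values were seen, fell. COL1A1 and COL1A2 were not called (0.092 and 0.098, limma adjusted P = 0.83 each). Of 7 smooth muscle markers 1, SMTN, rose (1.24, limma adjusted P = 0.0225). Of 5 leukocyte markers tested 1, ITGAM, rose (0.87, limma adjusted P = 0.0207). SMTN and ITGAM were also named after their values were seen. The summed squamous markers were at 166 to 1230 TPM in MT and 1490 to 2934 in LT, and 1 of 5 tested, KRT14, rose (548 to 2237 TPM, limma adjusted P = 0.0184). The part of these markers in the fall of IGFBP3 was not tested.

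IGFBP4, a binding protein that holds IGFs away from their receptor until PAPPA cuts it, was at 566, 635 and 806 TPM in NP, at 940, 640 and 914 in MT and at 2137, 1965, 3207 and 1847 in LT. No LT animal came near the values of NP or MT, and LT replicate 3 stood highest. Means were 669 ± 124, 831 ± 166 and 2289 ± 623 TPM. IGFBP4 rose by 1.45 from MT to LT (SE 0.22, limma adjusted P = 0.00284, exact permutation P = 0.0286) and by 1.75 from NP to LT (SE 0.22, limma adjusted P = 0.000275). From NP to MT the difference was 0.31 (limma adjusted P = 0.368). The rise from MT to LT was called under every alternative run, with adjusted P up to 0.019, and lay between 1.27 and 1.55 when single animals were left out.

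The transcripts of IGFBP4 and IGFBP3 changed order. The ratio of IGFBP4 to IGFBP3 was 1.08, 0.248 and 0.495 in NP, 2.16, 0.560 and 0.855 in MT and 17.9, 17.1, 18.3 and 12.2 in LT. In NP and MT the ratio ran on both sides of 1, and in LT IGFBP4 exceeded IGFBP3 at least 12-fold in each animal.

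IGFBP7, a relative with low affinity for IGFs that also binds insulin, was at 513, 422 and 438 TPM in NP, at 434, 407 and 418 in MT and at 734, 708, 1048 and 741 in LT. LT lay apart from both other stages, which overlapped. The means were 458 ± 48.6, 419 ± 13.6 and 808 ± 161 TPM. IGFBP7 rose by 0.93 from MT to LT (SE 0.14, limma adjusted P = 0.00288, exact permutation P = 0.0286) and by 0.80 from NP to LT (limma adjusted P = 0.00119). The rise from MT to LT was called under every alternative run and lay between 0.79 and 0.98 when single animals were left out.

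IGFBP5, a binding protein of the extracellular matrix, had the highest mean of all members in each stage. It was at 2099, 1344 and 1395 TPM in NP, at 2915, 1951 and 2336 in MT and at 4015, 3223, 2546 and 1752 in LT. The stages overlapped throughout, and the LT animals alone spanned 1752 to 4015 TPM. IGFBP5 rose from NP to LT (0.80, SE 0.28, limma adjusted P = 0.0331, exact permutation P = 0.114), with differences of 0.58 from NP to MT (limma adjusted P = 0.189) and 0.22 from MT to LT (limma adjusted P = 0.575). The rise was not called without a filter on low genes (limma adjusted P = 0.055), in a fit to the 2 stages alone (0.0505) or without any 1 of NP replicates 2 and 3 or LT replicates 1, 2 and 3 (0.0526 to 0.116).

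IGFBP6, which prefers IGF2 over IGF1, was at 689, 301 and 167 TPM in NP, at 466, 280 and 304 in MT and at 662, 717, 652 and 625 in LT. The LT animals were close to each other and above all MT animals, but NP replicate 1 lay within the LT range. From MT to LT the difference was 0.96 (SE 0.38, limma adjusted P = 0.0836, exact permutation P = 0.0286), and it passed in a fit to these 2 stages alone (limma adjusted P = 0.00603) and in DESeq2 (adjusted P = 0.0314). The same difference also passed without NP replicate 1 and without NP replicate 3. IGFBP6 rose from NP to LT by 1.02 (limma adjusted P = 0.0457). That call was lost in edgeR (adjusted P = 0.083), with no filter on low genes (limma adjusted P = 0.0665), in a fit to the 2 stages alone (0.0669) and without any 1 of NP replicates 2 and 3, MT replicates 2 and 3 or LT replicates 1 to 4, with limma adjusted P up to 0.176 without NP replicate 3.

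IGFBP2, a binding protein of fetal and epithelial tissues, was at 939, 351 and 268 TPM in NP, at 376, 180 and 205 in MT and at 334, 272, 207 and 217 in LT. The stages overlapped, and 1 NP animal was far above all others. The means were 520 ± 366, 254 ± 107 and 257 ± 58.3 TPM, and limma called no difference, with log2 differences of -0.89 from NP to MT (adjusted P = 0.175), 0.07 from MT to LT (0.914) and -0.82 from NP to LT (0.115). Without NP replicate 3 the last of these passed (-1.18, limma adjusted P = 0.043), whereas without NP replicate 1 it was -0.28 (0.437) and the first was -0.35 (0.409).

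The exact permutation test of the F statistic over the 3 stages gave P under 0.05 for 7 of the 10 members. These were IGF1R (0.000476), IGFBP4 and IGFBP7 (0.000952 each), IGF1 (0.00905), IGF2 (0.0157), IGFBP3 (0.0176) and IGF2R (0.021). It gave 0.0881 for IGFBP6, 0.124 for IGFBP5 and 0.161 for IGFBP2. This test was made for the members only, so the count of 7 has no share of all genes beside it. Without NP replicate 1 the value of IGF2R was 0.073 and that of IGFBP6 0.00714, and without LT replicates 1 or 2 that of IGFBP3 was 0.0643 or 0.0679. Without LT replicate 4 the value of IGFBP5 was 0.025, and without LT replicates 3 or 4 that of IGFBP3 was at the threshold, 0.05.

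Since TPM is per length, the levels of members can be ranked within a stage. In NP the means ran from IGFBP5 (1613 TPM) through IGFBP3 (1570), IGFBP4 (669), IGFBP2 (520), IGFBP7 (458), IGFBP6 (386) and IGF1 (300) to IGF2 (195), IGF2R (63.1) and IGF1R (29.4). Each neighbour down to IGF1 overlapped the next, so that the order of neighbours is not resolved. Members farther apart could be separated, as IGFBP5 (1344 to 2099 TPM) from IGFBP4 (566 to 806). IGF2, IGF2R and IGF1R were separated from each other and from IGF1. In MT IGFBP5 (2400 TPM) lay above the rest, IGFBP3 (882) and IGFBP4 (831) overlapped, and so did IGFBP7 (419), IGFBP6 (350), IGF1 (269) and IGFBP2 (254) with their neighbours. In LT IGFBP5 (2884 TPM) and IGFBP4 (2289) overlapped at the top, IGFBP7 (808) and IGFBP6 (664) overlapped below them, and IGF1 (422) and IGFBP2 (257) each stood alone. IGFBP3 (140 TPM) had moved to the seventh place in LT, where it overlapped IGF2 (117). IGF2R and IGF1R stayed last in all stages, with IGF1R at percentile 55.0, 52.1 and 44.2 of the genes tested in NP, MT and LT and IGFBP5 at percentile 99.4 to 99.7.

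The transcripts of the 6 binding proteins summed to 5331, 5611 and 4702 TPM in NP, to 5565, 4600 and 5244 in MT and to 8001, 7000, 7835 and 5335 in LT. NP and MT overlapped, and 3 of the 4 LT animals were above both. The means were 5215 ± 465, 5137 ± 492 and 7043 ± 1220 TPM, which is 0.522%, 0.514% and 0.704% of all transcripts. No test was made of sums and ratios over members, which were chosen with results of these data known.

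The make-up of the sum differed more between stages than its size. IGFBP3 made up 30.0 ± 18.3% of it in NP, 17.7 ± 8.84% in MT and 2.06 ± 0.619% in LT. The share of IGFBP4 was 13.0 ± 3.58% in NP, 16.1 ± 1.89% in MT and 32.6 ± 6.55% in LT. In each LT animal IGFBP3 was under 3% and IGFBP4 over 26% of the sum. IGFBP5 held 31.0 ± 7.80%, 46.4 ± 5.25% and 40.4 ± 9.08%. The shares of IGFBP2, IGFBP6 and IGFBP7 were 9.86%, 7.28% and 8.82% in NP, 4.86%, 6.75% and 8.20% in MT and 3.69%, 9.64% and 11.6% in LT.

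**Figure D3:**
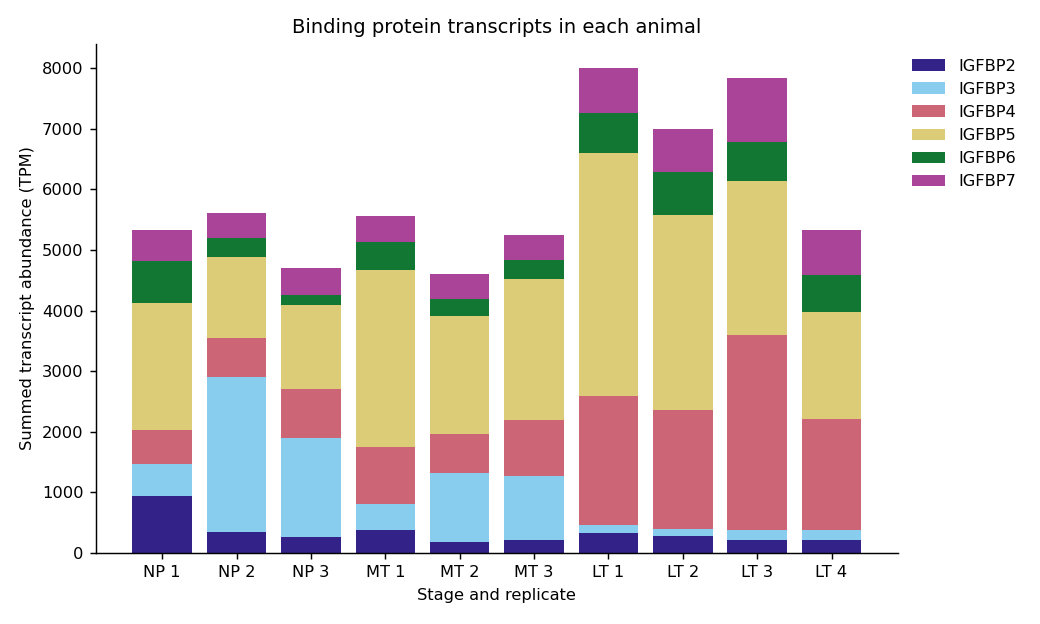
Summed transcript abundance in TPM of the 6 binding proteins in each animal, stacked by gene. The IGFBP3 block shrinks to 115 to 175 TPM in the LT animals while the IGFBP4 block reaches 1847 to 3207 TPM, and LT replicate 4 keeps a sum (5335 TPM) within the range of NP and MT.

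The ligands together came to 410, 529 and 546 TPM in NP, 460, 407 and 469 in MT and 521, 501, 676 and 455 in LT. The stages overlapped in this sum. The ratio of ligand to binding protein transcripts was 0.0770, 0.0942 and 0.116 in NP, 0.0827, 0.0884 and 0.0894 in MT and 0.0651, 0.0716, 0.0863 and 0.0854 in LT. Its means descended from 0.0958 ± 0.0197 over 0.0868 ± 0.00359 to 0.0771 ± 0.0104, but every pair of stages overlapped. Turned around, there were on average 10.7 binding protein transcripts for each ligand transcript in NP, 11.5 in MT and 13.2 in LT. Differences of the mean log2 ratio were -0.12 (NP to MT), -0.18 (MT to LT) and -0.30 (NP to LT). Single animals moved them, the first to -0.27 without NP replicate 1 and 0.027 without NP replicate 3, the second to -0.10 without LT replicate 1, and the third to -0.45 without NP replicate 1 and -0.15 without NP replicate 3. With IGFBP3 left out of the sum these differences were -0.38, -0.44 and -0.82, and with IGFBP5 left out the difference from NP to MT was 0.24.

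**Figure D4:**
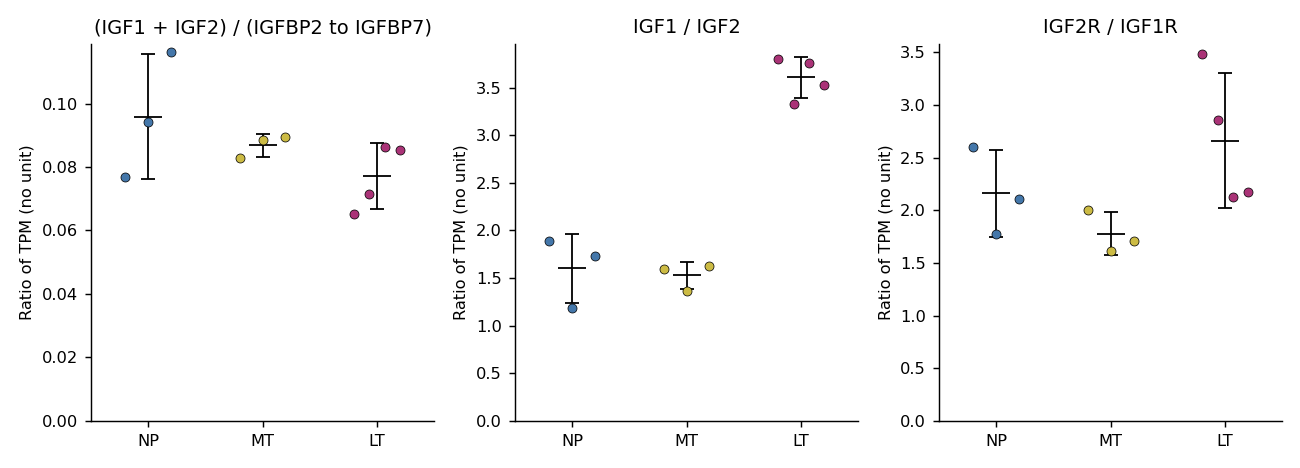
Ratios of TPM values in each animal by stage, with the mean and SD in black: ligands over binding proteins, IGF1 over IGF2, and IGF2R over IGF1R, each axis starting at 0. The first ratio overlaps between all stages, the LT animals lie at 3.33 to 3.81 in the second, and in the third the LT animals lie above MT.

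Of 66 other genes of the pathway, 62 had a row and 50 were tested. Of these, 1 rose and 6 fell from NP to MT, 3 rose and 17 fell from MT to LT, and 5 rose and 27 fell from NP to LT, which is 14%, 40% and 64% beside the 18.5%, 29.4% and 53.1% of all genes. Under median-ratio scaling 4 rose and 4 fell, 6 rose and 10 fell, and 11 rose and 17 fell, where 2282, 3716 and 6285 of all genes were called. The median log2 change of the list was -0.18, -0.23 and -0.37.

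Partners of the ligands in blood had low values in the table. The row named IGFBP1, a binding protein best known from decidua and liver, had 1 read in MT replicate 3 and none elsewhere, and whether this gene model captures the transcript was not tested. IGFALS, the acid-labile subunit that joins IGFBP3 and its ligand, was at 1.03, 3.50 and 2.76 TPM in NP, at 1.15, 0.634 and 0.712 in MT and at 0.0461, 0.172, 0.150 and 0.0694 in LT. The LT animals were all below the others. Since no stage mean reached 3 TPM, IGFALS was not among the 12645 genes tested. It entered only the runs with no filter, whose values for it are not given here. GHR, the growth hormone receptor, averaged 19.8, 20.7 and 25.1 TPM and was not called in any comparison by limma on TPM. From NP to LT it was called higher under median-ratio scaling (0.60, limma adjusted P = 0.0488), in edgeR (adjusted P = 0.0428) and in DESeq2 (adjusted P = 0.0183).

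Proteases that cut binding proteins, and the stanniocalcins that block them, made up 8 of the genes tested, of which 1 rose and 1 fell from NP to MT, 1 rose and 1 fell from MT to LT, and 3 rose and 1 fell from NP to LT. These are 25%, 25% and 50% of the list, beside 18.5%, 29.4% and 53.1% of all genes. From NP to MT 4 of 8 were called under median-ratio scaling, in edgeR and in DESeq2, which called 2282, 2280 and 3121 of all genes. PAPPA2, a protease of IGFBP3 and IGFBP5, was at 13.4, 27.7 and 26.0 TPM in NP, at 40.2, 57.1 and 51.3 in MT and at 13.1, 7.31, 1.24 and 0.456 in LT. It was highest in all MT animals and lowest in all LT animals, of which replicates 3 and 4 were nearest to 0. PAPPA2 fell by 3.50 from MT to LT (SE 0.69, limma adjusted P = 0.0065) and fell by 2.34 from NP to LT (limma adjusted P = 0.0166), the second of which was not called by edgeR (adjusted P = 0.114) or DESeq2 (0.105) or without NP replicate 2 (limma adjusted P = 0.0602) or NP replicate 3 (0.0541). The same LT replicates had the highest summed smooth muscle markers (37880 and 39170 TPM, against 18840 and 18890 in the other LT animals). They also had the highest squamous sums (2595 and 2934 TPM, against 1490 and 2344) and the lowest endothelial sums (45.1 and 39.8 TPM, against 68.8 and 57.5). The stroma, mucus epithelium and leukocyte sums did not separate them from the other LT animals. The part of these markers in the values was not tested.

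PAPPA, the protease of IGFBP4, was at 5.19, 8.42 and 7.03 TPM in NP, at 14.6, 8.06 and 19.9 in MT and at 18.5, 14.0, 13.7 and 11.2 in LT. All LT animals were above all NP animals, and MT overlapped both. PAPPA rose from NP to LT (0.96, SE 0.27, limma adjusted P = 0.0144), and from NP to MT the difference was 0.89 (limma adjusted P = 0.0616). That difference passed under median-ratio scaling (limma adjusted P = 0.0336), in edgeR (adjusted P = 0.0238) and without MT replicate 2 (limma adjusted P = 0.0154).

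STC1, an inhibitor of PAPPA and PAPPA2, averaged 32.4 TPM in NP, 51.6 in MT and 50.7 in LT and rose from NP to LT (0.62, limma adjusted P = 0.022), a call lost without NP replicate 1 (0.0712). Its difference from NP to MT was 0.66 (limma adjusted P = 0.0508), past the threshold in edgeR (adjusted P = 0.0279), under median-ratio scaling (0.0218) and without LT replicate 3 (0.0253). STC2, the second stanniocalcin, was at 14.1, 16.6 and 10.03 TPM in NP, at 36.1, 25.6 and 24.0 in MT and at 24.8, 21.6, 7.07 and 7.32 in LT. It was highest in MT and split among the LT animals, where replicates 3 and 4 were low as for PAPPA2, and limma called no difference, with adjusted P = 0.133 from NP to MT and 0.0825 from MT to LT. The second passed without LT replicate 1 (limma adjusted P = 0.0318).

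ADAM28, a protease reported to cut IGFBP3, was at 0.675, 6.82 and 2.49 TPM in NP, at 25.9, 15.6 and 20.7 in MT and at 15.6, 18.5, 14.7 and 9.45 in LT. All pregnant animals were above all NP animals. It rose by 2.58 from NP to MT (SE 0.47, limma adjusted P = 0.0061) and by 2.09 from NP to LT (limma adjusted P = 0.00326). ADAM12, a protease of IGFBP3 and IGFBP5, fell from 6.78 TPM in NP to 2.51 in MT (-1.11, limma adjusted P = 0.022) and rose to 6.45 in LT (1.05, limma adjusted P = 0.0155), and the fall was not called without NP replicate 3 or any 1 of MT replicates 1, 2 and 3 (limma adjusted P from 0.0543 to 0.0665).

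**Figure D5:**
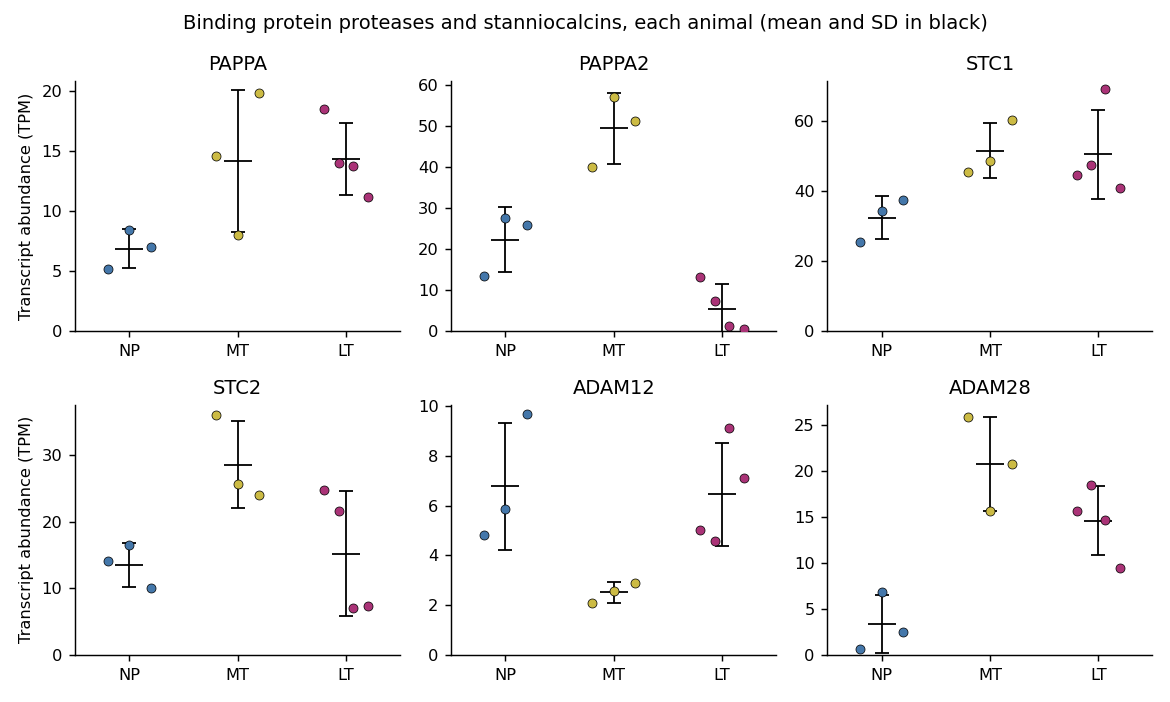
Transcript abundance in TPM of 4 binding protein proteases and both stanniocalcins in each animal by stage, with the mean and SD in black (the SD bar of PAPPA2 in LT is cut at 0). PAPPA2 is at 40.2 to 57.1 TPM in MT and at 0.456 to 13.1 in LT, and ADAM28 is below 7 TPM in NP only.

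Of 5 CCN proteins and relatives tested, which share the N-terminal domain of the binding proteins, 2 fell from NP to MT, 0 were called from MT to LT by limma or edgeR (0 at an unadjusted P under 0.05), and 2 fell from NP to LT. These are 40%, 0% and 40% of the list, against 18.5%, 29.4% and 53.1% of all genes, and from NP to MT 1 was called under median-ratio scaling and in edgeR. CTGF, a matricellular protein of fibroblasts, fell from 93.2 TPM in NP to 30.0 in MT (-1.62, limma adjusted P = 0.0129) and was at 39.5 in LT (-1.32 from NP, limma adjusted P = 0.00782). The first of these calls was lost without MT replicate 3 (limma adjusted P = 0.0562). WISP1 fell from 24.4 TPM to 13.7 from NP to MT (-0.80, limma adjusted P = 0.031) and lost that call under median-ratio scaling (limma adjusted P = 0.066), in edgeR (adjusted P = 0.0603) and without NP replicate 3, MT replicate 2 or MT replicate 3 (limma adjusted P from 0.0887 to 0.097).

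Of 13 receptor-proximal genes tested, 2 fell from NP to MT, 1 rose and 6 fell from MT to LT, and 8 fell from NP to LT. These are 15.4%, 53.8% and 61.5% of the list, where 18.5%, 29.4% and 53.1% of all genes were called and 41.9% fell from NP to LT, and from NP to MT 1 was called under median-ratio scaling, in edgeR and in DESeq2. INSR, the insulin receptor and nearest relative of IGF1R, averaged 21.2 TPM in NP, 21.8 in MT and 13.3 in LT, and fell by 0.67 from MT to LT (SE 0.15, limma adjusted P = 0.0107) and fell by 0.62 from NP to LT (limma adjusted P = 0.00695), the second of which was not called by edgeR with no filter (adjusted P = 0.0607). GIGYF1, a binding partner of the adaptor GRB10, fell from 30.9 TPM in MT to 10.3 in LT (-1.48, limma adjusted P = 0.00229), from 48.5 in NP (-2.10, limma adjusted P = 0.000118). Of the insulin receptor substrates, IRS1 averaged 24.4, 28.4 and 27.4 TPM with no call by limma on TPM, though it was called from NP to LT under median-ratio scaling (0.46, limma adjusted P = 0.0114). IRS2 was at 13.2, 8.71 and 4.70 TPM and fell from NP to LT (-1.22, limma adjusted P = 0.00744). Without NP replicate 1, IRS2 also passed from NP to MT (limma adjusted P = 0.0167) and from MT to LT (0.0136).

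SHC1 and SOS1 link the receptor to the Ras pathway, and their values beyond the comparison of NP with MT were chosen after they were seen. SHC1 fell from 136 TPM to 94.4 from NP to MT (-0.50, limma adjusted P = 0.0421), a call lost under median-ratio scaling (0.246), in edgeR (adjusted P = 0.173) and without any 1 animal other than NP replicates 1 and 3 (0.0522 to 0.119). SHC1 then rose to 139 TPM in LT (0.55 from MT, limma adjusted P = 0.0168), a call kept under median-ratio scaling (0.0188) and in edgeR (adjusted P = 0.0207), and from NP to LT the difference was 0.049 (limma adjusted P = 0.782). SOS1 fell from 33.9 TPM to 23.8 (-0.48, limma adjusted P = 0.0236), a call kept under median-ratio scaling (0.0183) and in edgeR (0.0139) but not in a fit to the 2 stages alone (0.0923) or without NP replicate 2, NP replicate 3, MT replicate 2 or MT replicate 3 (0.0521 to 0.0862). From NP to LT it fell by 0.83 (limma adjusted P = 0.00041), also called under median-ratio scaling (0.000672) and in edgeR (adjusted P = 0.00047).

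Of 22 genes of the PI3K and AKT arm, 1 fell from NP to MT, 1 rose and 9 fell from MT to LT, and 2 rose and 15 fell from NP to LT. These are 4.55%, 45.5% and 77.3% of the list, beside 18.5%, 29.4% and 53.1% of all genes. Under median-ratio scaling 2, 7 and 11 were called, beside 2282, 3716 and 6285 of all genes. In edgeR 2, 9 and 10 were called, beside 2280, 3667 and 6247 of all genes. By direction, median-ratio scaling gave 3 higher and 4 lower from MT to LT and 4 higher and 7 lower from NP to LT, and edgeR 3 higher and 6 lower and 3 higher and 7 lower. Of the 15 that fell from NP to LT, 3 (AKT2, RPS6KB1 and GSK3B, named after their values were seen) had a difference above 0 under median-ratio scaling. PIK3R1, the regulatory subunit that couples PI3K to receptor substrates, fell from 135 TPM in MT to 67.5 in LT (-0.98, SE 0.18, limma adjusted P = 0.00474) and from 186 in NP (-1.41, limma adjusted P = 0.000294). RICTOR, a part of the complex that phosphorylates AKT, fell from 11.2 TPM in MT to 5.33 in LT (-0.94, limma adjusted P = 0.00626). Both falls from MT to LT were also called under median-ratio scaling and in edgeR. IGF2BP2, which binds IGF2 mRNA, fell from 7.83 TPM in MT to 2.95 in LT (-1.09, limma adjusted P = 0.0111) and from 11.9 in NP (-1.72, limma adjusted P = 0.000501).

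For 4 members, the named genes with the most similar pattern were sought by Pearson correlation of log2(TPM + 1) over the 10 animals, which share the difference between stages. For IGFBP3 these were GCR_CAVPO, an entry name for the glucocorticoid receptor (r = 0.995), SERINC5 (0.989) and SLC26A2 (0.988). GCR_CAVPO averaged 29.2 TPM in NP, 25.8 in MT and 16.5 in LT, so that its change was far smaller than that of IGFBP3. For IGFBP4 they were PTRHD1 (r = 0.987), ACOT13 (0.971) and COX5A (0.969), for IGF1 HNRNPL (0.943), O70184_CAVPO (0.934) and ACOT13 (0.933), and for IGF2 QTRTD1 (0.985), DCP1B (0.979) and AKAP8 (0.971). Among the members themselves IGFBP3 went with IGF1R (r = 0.929) and IGF2 (0.926), and IGFBP4 with IGFBP7 (0.922) and IGF1 (0.914). These coefficients describe the 10 animals, and no test was made of them.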

How the data were processed

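Total RNA of 10 cervices was poly(A) selected and sequenced by the authors with strand-specific single reads, which they aligned with TopHat2 to the guinea pig genome cavPor3 and counted per gene with HTSeq 0.5.4p1. The deposited table holds these read counts and the TPM values that the authors derived from them. All columns of the table belong to the 10 animals. Values per animal, stage means, SDs and ratios were taken from the TPM values as deposited. Genes whose mean reached 3 TPM in any stage were tested with limma 3.58.1 (trend) in R 4.3.3 on log2(TPM + 1), with a pseudocount of 1 and the stage as the only term, and P-values were adjusted by Benjamini-Hochberg. The log2(TPM + 1) scale understates changes of genes at low TPM. All tests were two-sided, and the animals are the replicates. The counts entered edgeR 4.0.16 (quasi-likelihood) and DESeq2 1.42.0 as alternatives, beside other pseudocounts (0.1 and 5), the square root scale, no filter, median-ratio scaling, fits to 2 stages, a replicate block and leaving out each animal. The alternatives for pathway genes and for the exact F test were chosen after seeing the data. Scripts were tested on simulated data. The members, the lists and the tests were chosen with earlier results of these data known. Of the pathway lists, the 6 genes with the largest change among those called without overlap in each comparison are named, besides IGFBP1, IGFALS, PAPPA, STC1, STC2, INSR, IRS1 and IRS2. GHR, being the only tested gene of its list, and AKT2, RPS6KB1 and GSK3B were named after their values were seen. Of 8 genes matched by alias, 2 are members. No genome of the files' build was used.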

Additional observations from a re-analysis of the deposited data

Results flagged for a closer look

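In the LT group, the only one with 4 animals, the distance of the highest and lowest animal from the rest was compared with Dixon's critical value for 32 values, of which 2 passed, and chance alone passes about 1 in 20. IGFBP7 in LT replicate 3 was at 1048 TPM, with the other LT animals from 708 to 741 TPM (gap over range 0.902). RICTOR in LT replicate 3 was at 6.44 TPM, with the others from 4.87 to 5.02 TPM (0.899). The same animal had the highest IGF1, IGF2 and IGFBP4 of its group.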

How the results depend on the processing

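Of the 6 members called from MT to LT, the calls of IGFBP3, IGFBP4 and IGFBP7 held under every alternative run, and that of IGF1 under all but leaving out MT replicate 2. For the members' log2 changes, 283 of the alternatives that kept all animals left direction and call as they were, 26 lost a call, 5 gained one and 16 reversed the sign, and of those leaving out 1 animal 258 left both as they were, 28 lost a call, 4 gained one and 10 reversed it. The cause was not tested. From NP to MT, 0 members were called under median-ratio scaling, by edgeR with and without the filter, in the fit to the 2 stages and by DESeq2, where an unadjusted P under 0.05 was reached by 1, 1, 0, 2 and 3 members. When single animals were left out, 0 to 1 members, 2 (without MT replicate 3) to 14 (without NP replicate 1) pathway genes and 1100 (without MT replicate 3) to 4174 (without NP replicate 1) of all genes were called from NP to MT, and 1946 (without MT replicate 2) to 5323 of all genes from MT to LT. Over all genes the fit to the 2 stages called 1113 from NP to MT.

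Whether the replicate numbers pair the animals cannot be settled from these values. Of 9 pairs with the same number, 3 had a correlation of deviations over 0.1 (range -0.287 to 0.254). Pairs with different numbers ran from -0.262 to 0.248. Between NP and MT, the same-number pairs were at 0.254, 0.162 and 0.076. With the replicate number as a block, limma called 2 members from NP to MT, IGFBP5 among them (adjusted P = 0.0408). The edgeR block called 1 member, IGFBP5 (adjusted P = 0.0422). Of all genes, these fits called 1577 (limma) and 1507 (edgeR). From MT to LT the blocks called 1693 (limma) and 1911 (edgeR) of all genes and 11 pathway genes each, and IGF2 was called by neither (adjusted P = 0.0709 and 0.121). From NP to LT the limma block called all 10 members, with IGFBP2 at -0.74 (adjusted P = 0.042), and the edgeR block called 7. Of all genes, these fits called 5448 (limma) and 4938 (edgeR). The edgeR block did not call IGF1R (adjusted P = 0.0588), PAPPA2 (0.0558) or IGF2BP2 (0.0637) from MT to LT, nor IGF2 (0.0851), IGF2R (0.256), INSR (0.0698) or PAPPA2 (0.149) from NP to LT, nor IGF2R (0.115), WISP1 (0.0593) or SHC1 (0.268) from NP to MT. The limma block did not call SHC1 (0.0887) or SOS1 (0.0611) from NP to MT, and neither block called SHC1 from MT to LT (0.0768 in limma and 0.0811 in edgeR). From NP to MT, STC1 passed in both blocks (0.0162 in limma and 0.0118 in edgeR) and STC2 in edgeR (0.0413).

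Among the calls by limma on TPM that the text names, signs reversed for 3 PI3K and AKT genes from NP to LT. AKT2 was at 0.0032 under median-ratio scaling and 0.034 in edgeR with no filter. RPS6KB1 was at 0.039, 0.016, 0.079 and 0.017 and GSK3B at 0.063, 0.016, 0.078 and 0.018 under median-ratio scaling, edgeR, edgeR with no filter and DESeq2. The other reversed signs were of differences not called. From NP to MT, IGF2 was at 0.028 under median-ratio scaling, 0.024 in edgeR with no filter and 0.0053 in edgeR with the block. IGFBP6 was at -0.26 on the square root scale and at -0.081, -0.061 and -0.078 in edgeR, edgeR with no filter and DESeq2, and IGFBP7 at 0.020 under median-ratio scaling and 0.0092 in edgeR with no filter. From MT to LT, in the order square root scale, median ratio, edgeR, edgeR with no filter, limma block, edgeR block and DESeq2, IGF2R was at 0.0014, 0.18, 0.17, 0.21, 0.026, 0.18 and 0.17. STC1 was at 0.14, 0.15, 0.18, 0.044, 0.21 and 0.15 in the same order from median ratio on, and IRS1 at 0.12, 0.12, 0.16, 0.036 and 0.12 without the limma block. STC2 from NP to LT was at 0.013 with a pseudocount of 5, at 0.085 on the square root scale and, from median ratio on, at 0.28, 0.44, 0.50, 0.23, 0.56 and 0.44. Leaving out single animals gave -0.32 to 0.059 for IGF2, -0.42 to 0.60 for IGFBP6, -0.053 to 0.15 for GHR and -0.12 to 0.19 for INSR from NP to MT. From MT to LT it gave -0.088 to 0.067 for IGF2R, -0.14 to 0.39 for IGFBP2, -0.25 to 0.35 for PAPPA, -0.20 to 0.073 for STC1 and -0.12 to 0.0090 for IRS1, and from NP to LT -0.32 to 0.24 for STC2 and -0.059 to 0.23 for SHC1.

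The log2 ratio of ligands to binding proteins moved to 0.24 from NP to MT without IGFBP5, and without IGFBP3 to -0.38, -0.44 and -0.82 in the 3 comparisons. The log2 sum of ligands and binding proteins moved to -0.36 (NP to MT) and 0.19 (NP to LT) without IGFBP5, and to 0.19, 0.66 and 0.85 without IGFBP3.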
